A study of Mus musculus with 3 samples.

Results

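Runx1 chromatin immunoprecipitation and sequencing (ChIP-seq) of mouse spinal cord was deposited as a list of called regions for each of 3 replicates, and 1272 regions were found in replicates 2 and 3 but not in replicate 1. They were chosen by position: a call of replicate 2 had to share at least 1 bp with a call of replicate 3 and none with a call of replicate 1. They were 1272 of the 1641 regions of replicate 2, which otherwise held 240 regions found in all 3 replicates, 126 found in replicate 2 alone and 3 found in replicates 1 and 2. The lists held 15286 regions in all, with 451 in replicate 1 and 13194 in replicate 3. Since calling rests on fold and p, the folds, p-values, widths and overlaps of these regions in the same lists are given as a description with no test.

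Runx1 is a transcription factor that binds DNA with its partner Cbfb, at sites whose core is usually written TGTGGT. It is best known from blood cell development and from myeloid cells, and in the central nervous system it has been studied in microglia, the resident macrophages. ChIP-seq recovers DNA crosslinked to a protein with an antibody, and a called region is a stretch where recovered fragments pile up over the local background.

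Each replicate was an immunoprecipitation from C57BL/6J mice, all male and 8 to 10 weeks old, with about 10 µg of chromatin pooled from 10 cords and 9 µg of a rabbit polyclonal antibody. The cells had been fixed in pools of 5 cords. No treatment is named in the labels, and all 3 replicates form 1 group, whose tissue entry for replicate 3 holds antibody text, so that the title placed it. The labels do not say whether animals were shared between replicates, and whole cord holds many cell types, so a region cannot be assigned to a cell type. Replicate 1 had the lowest estimated depth (relative depth 1, against 1.07 in replicate 2 and 1.52 in replicate 3) and the highest minimum −log10 p among its regions (6.02, against 5.42 and 4.53). The lowest −log10 q was alike in the 3 lists (2.005, 2.001 and 2.005), so the minimum p differs between lists that end at about the same q. Its list gives values only for called regions, so no fold in replicate 1 exists for the 1272 regions, and absence from it is the absence of a call.

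Promoter sequences of 4 genes with such a region show what the windows looked like, chosen as 2 with the E-box CACGTG, 1 with the RUNX core TGTGGT and 1 with neither. Each is the RefSeq GRCm38.p6 window from 250 bases before to 50 bases after the gene's start, written 5′ to 3′ on the gene's strand. Capitals mark matches, on either strand, to any of 6 short motifs: the E-box, the RUNX core and its alternate form, the ETS core, the SOX core and the SP/KLF box, whose letters are given with their counts. In Ctsd they mark 2 E-boxes beside SP/KLF boxes, and in Ptbp1 an E-box and a reversed SP/KLF box. In Meis1 they mark a RUNX core with reversed ETS and SOX cores, and in Jun a reversed SP/KLF box.
Ctsd promoter, chr7:142387778-142388077, minus strand: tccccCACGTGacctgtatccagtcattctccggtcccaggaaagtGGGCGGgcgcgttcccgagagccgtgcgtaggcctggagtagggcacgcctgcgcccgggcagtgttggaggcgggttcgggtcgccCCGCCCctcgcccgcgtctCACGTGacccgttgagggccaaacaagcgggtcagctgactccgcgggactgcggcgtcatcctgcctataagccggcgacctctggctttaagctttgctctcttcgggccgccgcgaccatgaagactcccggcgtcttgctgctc
Ptbp1 promoter, chr10:79854182-79854481, plus strand: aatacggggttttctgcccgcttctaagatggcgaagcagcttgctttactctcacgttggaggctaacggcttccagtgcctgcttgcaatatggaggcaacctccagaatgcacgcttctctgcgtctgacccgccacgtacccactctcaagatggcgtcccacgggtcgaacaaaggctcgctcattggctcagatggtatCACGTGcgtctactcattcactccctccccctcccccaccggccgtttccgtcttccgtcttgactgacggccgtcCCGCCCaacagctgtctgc
Meis1 promoter, chr11:19018920-19019219, minus strand: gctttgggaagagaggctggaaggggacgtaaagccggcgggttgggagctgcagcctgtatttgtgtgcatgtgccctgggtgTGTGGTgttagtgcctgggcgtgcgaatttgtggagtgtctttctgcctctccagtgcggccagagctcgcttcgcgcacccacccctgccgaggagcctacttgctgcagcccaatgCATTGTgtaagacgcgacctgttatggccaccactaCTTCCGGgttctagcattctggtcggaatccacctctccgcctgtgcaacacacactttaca
Jun promoter, chr4:95052173-95052472, minus strand: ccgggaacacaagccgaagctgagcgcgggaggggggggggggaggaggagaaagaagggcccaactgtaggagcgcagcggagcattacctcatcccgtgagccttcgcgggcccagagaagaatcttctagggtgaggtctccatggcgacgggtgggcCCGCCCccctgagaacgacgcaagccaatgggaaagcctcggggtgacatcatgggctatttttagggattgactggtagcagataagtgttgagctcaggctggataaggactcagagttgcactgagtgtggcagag

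MicroRNA genes were the assigned gene of 16 of the regions (1.26%, 95% Wilson interval 0.776 to 2.03), against 0 of the 240 regions found in all 3 replicates (interval up to 1.58%), intervals that overlap. The mature sequences of 3 microRNAs whose genes had a region in the promoter classes are printed from RefSeq, with the seed (bases 2 to 8), which pairs with target messenger RNAs, in capitals. The 3 seeds differ, and miR-125b-5p comes from both Mir125b-1 and Mir125b-2.
miR-219a-5p: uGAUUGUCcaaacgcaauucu
miR-125b-5p: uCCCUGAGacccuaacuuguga
miR-484: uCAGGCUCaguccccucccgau

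The region at Mir219a-2, the source of a microRNA of oligodendrocyte differentiation, spanned 1900 bp with a fold over background of 6.39 in replicate 2 and 6.79 in replicate 3. Here and below, the fold of a region in replicate 3 is that of the strongest summit of the replicate 3 region it overlaps, which can lie outside the replicate 2 region. Mir125b-1 had folds of 4.04 and 5.81 in replicates 2 and 3, and Mir125b-2, which gives rise to the same mature microRNA, had 3.55 and 6.57. Mir484 had 4.52 and 5.67, and its region, like that of Mir219a-2, covered the mature sequence. At Mir125b-1 the strongest replicate 3 summit inside the region itself had a fold of 3.87, below its 4.04 in replicate 2.

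The 1272 regions were mid-ranking in the list of replicate 2 and high-ranking in the far longer list of replicate 3. These ranks are not independent of the rule. The regions make up most of the list of replicate 2, and in replicate 3 they had to overlap a call of that shorter list. Fold over background, as the authors' peak caller gave it at the strongest summit, ran from 2.72 to 9.03 in replicate 2 with a median of 3.96 (quartiles 3.52 and 4.53). The regions found in all 3 replicates had a median of 4.63 and reached 26.7, and those of replicate 2 alone had a median of 3.82. In replicate 3 the overlapped regions ran from 2.21 to 18.4 with a median of 5.54 (quartiles 4.24 and 7.07), against 6.59 for regions in all 3 replicates. Counting only replicate 3 summits inside the region, which 1111 had, the median was 5.08, against 6.64 for 231 regions in all 3 replicates. As percentiles of fold within each list, the medians were 47.2 in replicate 2 and 85.9 in replicate 3, against 74.4 and 93.3 for regions in all 3 replicates. The interquartile ranges of the classes overlapped, and the fold was higher in replicate 3 than in replicate 2 for 1018 regions (80.0%), against 82.5% of the regions in all 3 replicates.

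**Figure D1:**
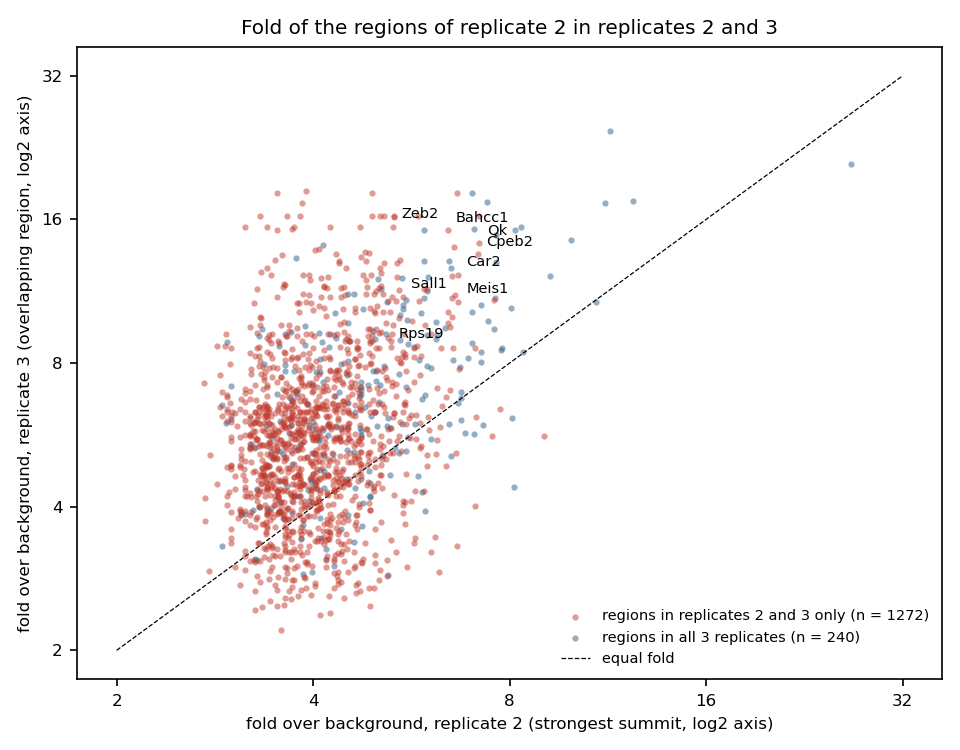
Fold over background of each region in replicate 2 (x axis) and of the strongest replicate 3 region it overlaps (y axis), on log2 axes, for 1272 regions in replicates 2 and 3 only and 240 regions in all 3 replicates. Most points lie above the line of equal fold, and the regions in all 3 replicates reach further to the upper right, to 26.7 in replicate 2.

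The summit pileups, the number of fragments stacked at the summit as solved from the deposited fold and p, had a median of 19 fragments in replicate 2 (range 13 to 41) and 39 in replicate 3 (range 13 to 130). Regions in all 3 replicates had medians of 24 and 56 fragments. The strongest summits of these regions in replicate 2 therefore rested on at most 41 fragments. Of the 1272 regions, 1076 had a −log10 p in replicate 2 at or above 6.02, the lowest in the list of replicate 1 (84.6%, 95% Wilson interval 82.5 to 86.5), against 224 of 240 regions in all 3 replicates (93.3%). At or above the median −log10 p of replicate 1, 10.4, were 278 (21.9%, interval 19.7 to 24.2), against 128 (53.3%, interval 47.0 to 59.5). The regions thus differed from those in all 3 replicates more in how many were strong than in how many were above the lowest p of replicate 1. The part of depth in their absence from replicate 1 was not tested.

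Ranked by fold within replicate 3, the regions took many of the first places. Of the 50 strongest regions of replicate 3, 21 overlapped replicate 2 and not replicate 1, 16 were in all 3 replicates, 3 were in replicates 1 and 3 and 10 were in replicate 3 alone. Of the 50 widest, 34 overlapped replicate 2 and not replicate 1, 14 were in all 3 replicates and 2 were in replicate 3 alone. Counted over the whole of replicate 3, its regions that overlapped replicate 2 and not replicate 1 numbered 1129 (8.56%), with a median fold of 5.21 and a median width of 897 bp. Those of all 3 replicates numbered 239 (6.53 and 990 bp), and those of replicate 3 alone numbered 11655 (3.72 and 438 bp).

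Widths behaved differently in the 2 lists. In replicate 2 the median width was 425 bp, against 520 bp for regions in all 3 replicates and 329.5 bp for those of replicate 2 alone. The overlapped region of replicate 3 had a median width of 1021 bp, against 991.5 bp, and was the wider of the pair in 1152 cases (90.6%). It was at least 2 kb wide for 324 regions (25.5%, interval 23.2 to 27.9), against 54 of the regions in all 3 replicates (22.5%, interval 17.7 to 28.2), intervals that overlap. A wide replicate 3 region is counted here once for each replicate 2 region in it, because 210 of the 1272 lay in 84 replicate 3 regions that held several, up to 9 in 1 region.

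**Figure D2:**
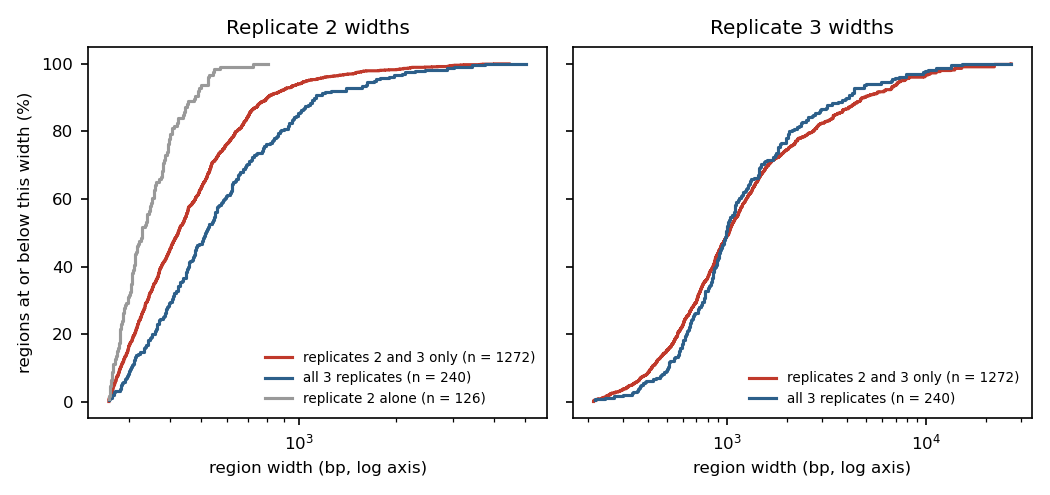
Cumulative share of regions (y axis, %) at or below each width (x axis, bp, log axis) in replicate 2 (left) and in the overlapped region of replicate 3 (right). In replicate 2 the curve of the 1272 regions lies between those of all 3 replicates and replicate 2 alone, and in replicate 3 it crosses that of the 240 regions in all 3 replicates, with medians of 1021 and 991.5 bp.

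The 1272 regions covered 677 kb on 20 chromosomes, and 886 of them (69.7%) lay wholly inside 1 region of replicate 3. A replicate 3 summit fell inside 1111 of them (87.3%), against 231 of 240 regions in all 3 replicates (96.3%). The median distance to the nearest replicate 1 call was 1276 kb, and 697 (54.8%) were over 1 Mb away. With only 451 calls in replicate 1, long distances arise for any position, and no distance was computed for other regions. Some touched replicate 1 indirectly, since 51 (4.01%) lay in 28 replicate 3 regions that also overlapped a replicate 1 region. Among the coding genes of the 1272 regions, 27 (3.14%) had a replicate 1 region elsewhere, beside 1.51% of all coding genes.

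At the edges of the rule, single bases decided. Ywhae, which encodes a 14-3-3 adaptor protein, was counted on a 7 bp overlap with replicate 3 (folds 4.25 and 2.40), and Tubg2, a gamma-tubulin, on 11 bp (4.10 and 2.37). Irs2, an insulin receptor substrate, was counted although a replicate 1 region lay 1 bp away (3.78 and 4.65). Outside the rule, a region at Yeats2 (fold 4.05 in replicate 2) was 1 bp short of replicate 3, and one at Tmod2 overlapped replicate 1 by 5 bp (3.59 and 3.79).

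The regions lay mainly at promoters, though less exclusively than those in all 3 replicates. The deposited class for promoters, up to 1 kb from a gene start, held 884 (69.5%, interval 66.9 to 72.0), against 83.3% of regions in all 3 replicates (interval 78.1 to 87.5) and 68.3% of those of replicate 2 alone (interval 59.7 to 75.7). A further 155 lay 1 to 3 kb from a start (12.2%, interval 10.5 to 14.1), against 4.17% (2.28 to 7.50) and 9.52% (5.53 to 15.9). Introns held 109 (8.57%, interval 7.15 to 10.2), against 3.33% (1.70 to 6.44) and 11.1% (6.74 to 17.8). Distal intergenic sites held 95 (7.47%), against 7.08% and 9.52%, and the remainder were 12 in UTRs, 7 in exons and 10 just downstream of genes. Thus the intervals of the 1272 regions and of those in all 3 replicates did not overlap for the promoter, flank and intron classes, while those of replicate 2 alone overlapped those of the 1272 in every class. All intervals cover counting error only, and no test was made across regions.

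Within the promoter class the strongest summit lay a median of 18.5 bp downstream of the gene start (quartiles −188 and 171 bp), against −41 bp in regions of all 3 replicates and 52.5 bp in those of replicate 2 alone. It was downstream for 471 of 884 (53.3%, interval 49.985 to 56.5), against 83 of 200 (41.5%, interval 34.9 to 48.4) and 51 of 86 (59.3%, interval 48.7 to 69.1). Among regions within 3 kb of a start, 197 of 1027 summits lay over 500 bp downstream (19.2%, interval 16.9 to 21.7), against 16 of 209 (7.66%, interval 4.77 to 12.1) and 22 of 98 (22.4%, interval 15.3 to 31.7). Summits over 500 bp upstream made up 11.6% (interval 9.77 to 13.7), against 8.13% (5.14 to 12.6) and 6.12% (2.84 to 12.7). Summits over 500 bp downstream were thus a larger share here than in all 3 replicates, and the regions of replicate 2 alone were like the 1272 in this.

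Sequence motifs were counted in the 626 RefSeq promoter windows, of 560 genes, that the regions overlapped, on both strands. The E-box CACGTG, the palindrome bound by MiT/TFE factors such as Tfeb and by Myc, was in 103 windows (16.5%, interval 13.8 to 19.6), against 41.8% of the 196 windows under regions in all 3 replicates (interval 35.2 to 48.8) and 10.99% of the 5270 under replicate 3 alone (interval 10.2 to 11.9). It was in 7.15% of all 32817 windows. Its flanked form TCACGTGA, which contains it, was in 4.15% of windows of the 1272 regions (interval 2.85 to 6.02), against 20.9% (15.8 to 27.1), 2.22% (1.86 to 2.65) and 0.975% in the same order. The regions held a share of E-box windows between those of all 3 replicates and of replicate 3 alone. The windows were also richer in G and C (median 61.7%) than all windows (52.7%), and less so than those of all 3 replicates (64.5%). Between 55% and 65% GC, CACGTG was in 17.8% of 276 windows (interval 13.7 to 22.7), against 40.3% of 77 in all 3 replicates, 10.9% of 2175 in replicate 3 alone and 9.66% of all 8227.

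The RUNX core TGTGGT was in 60 of the 626 windows (9.58%, interval 7.52 to 12.1), against 12.2% in all 3 replicates (8.37 to 17.6), 11.1% in replicate 3 alone and 16.8% of all promoter windows. In the range from 55% to 65% GC it was in 9.06% (interval 6.21 to 13.03), against 10.4%, 13.01% and 15.2% in the same order. The alternate form TGCGGT was in 13.6% (interval 11.1 to 16.5), against 14.3%, 11.4% and a background of 6.45%. It holds the letters CG, whose median ratio of observed to expected count was 0.825 in these windows, against 0.383 in all windows. Neither this form nor the motifs that follow were counted at matched GC. The ETS core CCGGAAG was in 21.7% (interval 18.7 to 25.1), against 15.8% (11.4 to 21.6), 21.6% and 8.86%. The SOX core ACAATG was in 7.83%, against 10.7%, 6.98% and 12.6%, and the GC-rich box GGGCGG in 67.3%, against 67.9%, 68.1% and 35.6%. The ETS core share of the 1272 regions lay close to that of replicate 3 alone, and the GGGCGG shares were alike in the 3 sets of regions. The TGCGGT share was nearer that of all 3 replicates, with an interval that also includes the 11.4% of replicate 3 alone. A match in a window is only a description of its letters, and the sequence under summits outside the windows was not analysed here.

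Folds were set beside the E-box and the RUNX core. The 84 regions over a CACGTG window had median folds of 3.93 in replicate 2 and 5.43 in replicate 3, against 3.91 and 4.84 for the 400 without it. The interquartile ranges overlapped (3.57 to 4.59 against 3.52 to 4.54 in replicate 2, and 4.41 to 6.69 against 3.86 to 6.15 in replicate 3). For TGTGGT the medians were 4.00 and 4.87 in 54 regions, against 3.91 and 4.96 in 430 without it.

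**Figure D3:**
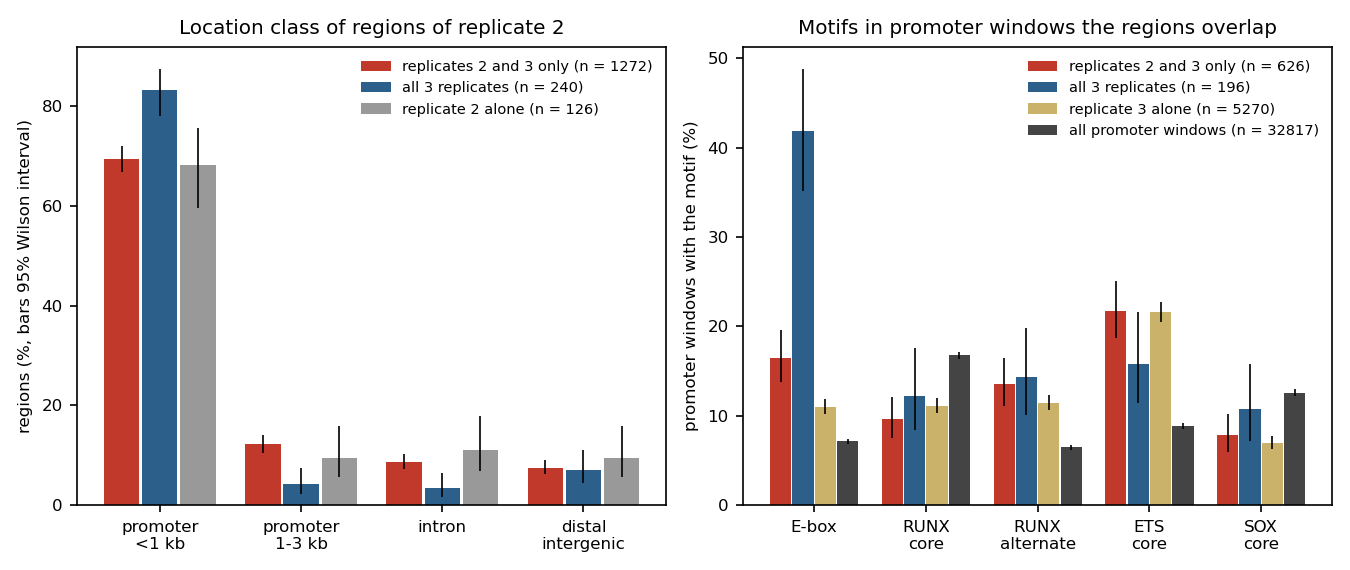
Share of replicate 2 regions in each location class (left, %) and of overlapped promoter windows that hold each motif (right, %), with 95% Wilson intervals as bars. Regions in replicates 2 and 3 only have 69.5% in the promoter class, against 83.3% for all 3 replicates, and CACGTG in 16.5% of windows, against 41.8%.

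The 1272 regions were assigned by the authors' annotation to 863 coding genes, of which 860 matched RefSeq, or 3.93% of 21887 coding genes. Regions in all 3 replicates reached 0.850% of coding genes, replicate 2 alone 0.480%, and the whole lists of replicates 1, 2 and 3 reached 1.51%, 5.16% and 31.4%. The remaining biotypes included 79 lincRNA, 44 antisense and 38 processed transcript assignments, and 17 coding genes also had a region in all 3 replicates.

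The 20 regions that ranked highest in both lists, by the lower of their 2 percentiles of fold, were assigned to 11 coding and 9 other genes. First came 1810026B05Rik, a processed transcript, with folds of 7.57 in replicate 2 and 10.8 in replicate 3 (chr7:73556689-73558009, GRCm38). Qk, which encodes an RNA-binding protein needed for myelination, had 7.17 and 14.3 over 4001 bp (chr17:10314125-10318125). Cpeb2, a regulator of messenger RNA translation, had 7.16 and 13.5 at its promoter. These regions had 35 to 40 stacked fragments in replicate 2 and 50 to 71 in replicate 3.

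Meis1, a homeobox cofactor of Hox proteins, had the widest of the 1272 regions in replicate 2, 4453 bp from the promoter into the gene, with folds of 6.67 and 10.8 (chr11:19014791-19019243). Its printed promoter window, which the region covers, carries the TGTGGT core. The strongest replicate 2 summit of the region lay outside that window, 3011 bp downstream of the gene start. Car2, carbonic anhydrase of myelinating glia, had 6.66 in replicate 2 and 10.5 inside the region in replicate 3 at the first of its 3 regions. All 3 lay inside a replicate 3 region of 9883 bp whose strongest summit, at 12.3, was in the third. Bahcc1, a chromatin reader with a BAH domain, had 6.43 and 15.2, and 2 replicate 1 regions were assigned to the same gene. Gm42692, with 7.17 in replicate 2 and 13.3 inside the region in replicate 3, lay in a replicate 3 region of 21957 bp that also held both regions of Sox2, a transcription factor of neural stem cells and glia, whose folds in replicate 2 were 4.92 and 3.65.

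Other coding genes among the 20 were Tspyl2 (7.09 and 8.59), Trim8, a ubiquitin ligase (6.69 and 7.76), Urm1, a modifier of transfer RNA (6.59 and 11.1), Tcf4 (6.56 and 8.61), Arrdc3, an arrestin-related adaptor (6.53 and 12.2), and Per1, a repressor of the circadian clock (6.52 and 9.98). The remaining members were the non-coding 2810410L24Rik (6.64 and 18.2), Gm29291 (6.57 and 14.0), Mir5114 (6.52 and 10.9), Lncppara (6.48 and 9.51), Gm4221 (6.44 and 9.70), C130071C03Rik (6.43 and 10.2) and Gm45332 (6.27 and 8.62). The strongest replicate 3 summit inside the region itself was lower at Lncppara (3.07), Gm4221 (5.43) and 2810410L24Rik (10.8). The genes 2810410L24Rik, Gm4221 and C130071C03Rik each had 1 replicate 1 region assigned. Among the 1272 regions, the highest fold in replicate 2 was at Hexim1, which encodes an inhibitor of transcription elongation, with 9.03 in replicate 2 and 5.62 in replicate 3, a region picked out after the values were seen.

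Several genes carried many separate regions. There were 93 coding genes with 2 or more and 33 with 3 or more. Zeb2, a zinc-finger repressor that acts in neural crest and in oligodendrocyte differentiation, had 9, with folds of 3.15 to 5.30 in replicate 2, overlapping 5 replicate 3 regions. Between these lay a further replicate 2 region of fold 8.32 that was in all 3 replicates, and 5 of the 9 lay in the same 15033 bp replicate 3 region as it. Tcf4, a basic helix-loop-helix factor, had 6 regions with folds of 2.99 to 6.56 in replicate 2 and 5.83 to 8.61 in replicate 3. Nfib, a nuclear factor of glial development, had 5 (3.49 to 5.31, and 6.27 to 8.15), with 1 replicate 1 region assigned to the gene. Gpr37, a receptor of oligodendrocytes, had 4 (3.40 to 4.53, and 6.39 to 7.14). Ebf3, Pde4b and Slain1 had 4 each, with folds in replicate 2 between 2.99 and 4.66.

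Long non-coding genes took 161 of the regions, at 119 genes. By biotype, lincRNA genes took 6.21%, against 7.50% in all 3 replicates and 7.14% in replicate 2 alone. Antisense genes took 3.46%, against 4.17% and 2.38%, and processed transcripts 2.99%, against 2.50% and 0.794%. C130071C03Rik had 7, and 1 replicate 1 region was assigned to it. Mir124-2hg, the host of a neuronal microRNA, had 6, all in 1 replicate 3 region with a fold of 6.31. These 6 had folds of 2.96 to 3.90 in replicate 2. Malat1, an abundant nuclear RNA, had 2 (5.50 and 3.97 in replicate 2), but 2 replicate 1 regions were assigned to it as well.

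Gene lists by function and cell type showed where the assigned genes lay. The largest share was for oligodendrocyte and myelin genes, of which 18 of 40 had a region (45.0%, interval 30.7 to 60.2), beside 3.93% of all coding genes. None of the 40 had a region in all 3 replicates (interval up to 8.76%, which includes the 0.850% of all coding genes). In replicate 1, 1 had one (Zfp24), beside 1.51% of all coding genes, and in replicate 3, 38 had one, beside 31.4%. The 18 had 39 regions, with a median fold of 4.56 in replicate 2 and 8.00 in replicate 3, beside 3.96 and 5.54 over all 1272. The overlapped replicate 3 regions were a median of 2830 bp wide, beside 1021 bp. Only 14 of the 39 were in the promoter class (35.9%), and of 24 within 3 kb of a start, 19 had the summit downstream of it. The lists were chosen with results of these data in view, and no test was made of them.

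Mbp, the gene of myelin basic protein, carried 5 regions, with folds of 5.14, 5.37, 4.39, 4.45 and 5.06 along the gene in replicate 2. The first 3 fell in 1 replicate 3 region of 7406 bp with a fold of 12.99 and 110 stacked fragments. Ermn, which encodes the oligodendrocyte cytoskeletal protein ermin, had 5 regions (3.95 to 5.26), 4 of them in a replicate 3 region of 6711 bp with a fold of 8.90. Cnp, a phosphodiesterase of myelin, had 3 (4.00, 5.72 and 4.23), the middle one 2935 bp wide over its promoter. Olig2, the transcription factor of the oligodendrocyte lineage, had 3 (5.22, 5.53 and 5.47). In each of these genes, regions lay away from the start as well as near it.

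Other oligodendrocyte genes had 1 or 2 regions each. Trf, which encodes the iron carrier transferrin, had the highest fold in replicate 3 of the list, 16.1, for its promoter region, and 5.32 in replicate 2. Mobp had 5.00 and 8.61 for the first of its 2 regions, Cldn11, a claudin of myelin, had 4.80 and 13.7 for a distal region, and Gjc3, a connexin, had 5.42 and 11.4 for another distal one. Olig1, Nkx2-2 and Nkx6-2, transcription factors of the same lineage, had folds in replicate 2 of 4.51, 3.59 and 4.86 at the first region of each. Regions also lay at Enpp2, Fa2h, Mog, Opalin, Qdpr and Sox8. Sox10, Myrf and Mag, central genes of the same cells, had none of the 1272 regions, with 2, 4 and 3 regions in replicate 3.

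**Figure D4:**
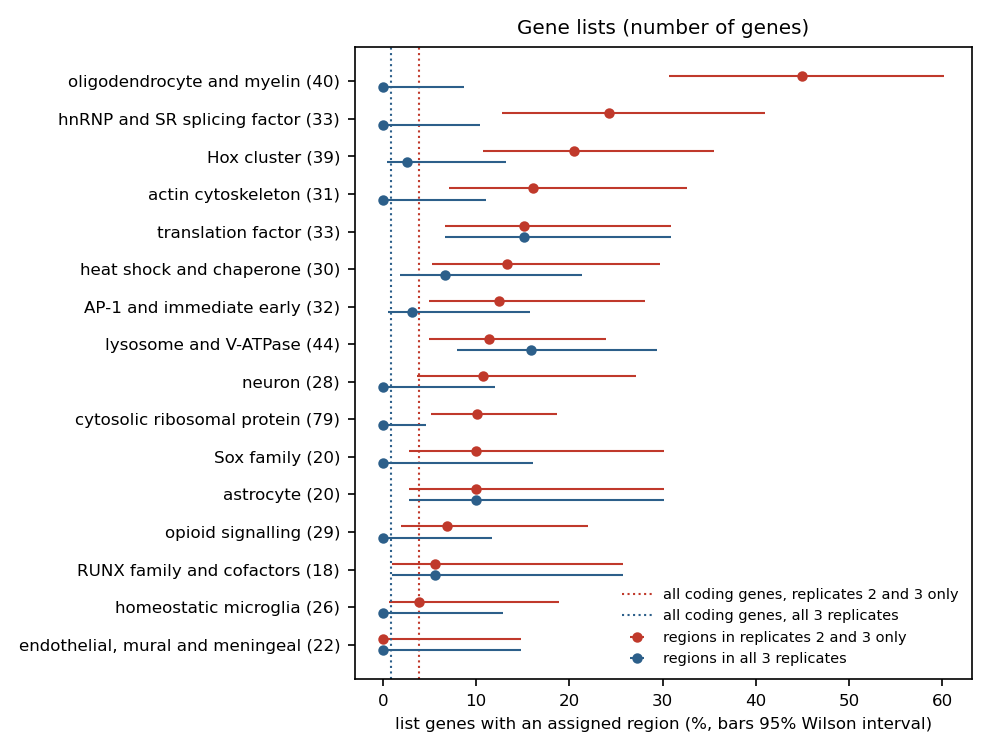
Share of each list's coding genes (x axis, %) with an assigned region, for regions in replicates 2 and 3 only (upper point of each pair) and in all 3 replicates (lower point), with 95% Wilson intervals, and dotted lines at the share of all coding genes (3.93% and 0.850%). The oligodendrocyte and myelin list stands at 45.0%, against 0 of 40 genes in all 3 replicates.

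Genes of microglia, the cells named in the study's title, had regions about as often as all coding genes. Of 26 homeostatic microglia genes, 1 had any (3.85%, interval 0.682 to 18.9, beside 3.93% of all coding genes), namely Sall1, a zinc-finger factor of microglial identity that is also active in development. In replicate 3, 5 genes in this list had a region (19.2%, interval 8.51 to 37.9, beside 31.4%). The 5 regions of Sall1 had folds of 4.41, 5.29, 5.48, 4.11 and 3.52 in replicate 2, all within a replicate 3 region of 10420 bp with a fold of 11.02. P2ry12, Tmem119, Cx3cr1, Csf1r and Spi1, defining genes of the cell type, had no region in any replicate. Runx1 itself and its partner Cbfb had none of the 1272 and 1 region each in replicate 3, and Runx2 and Runx3 had none in any list. Of 18 RUNX family and cofactor genes, Hdac1, a histone deacetylase, had 1 region (folds 4.19 and 3.41), against Kmt2a in all 3 replicates. The share with Hdac1, 5.56% (interval 0.988 to 25.8), was near the 3.93% of all coding genes. Called regions mark the protein's recovered chromatin, not the expression of these genes.

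**Figure D5:**
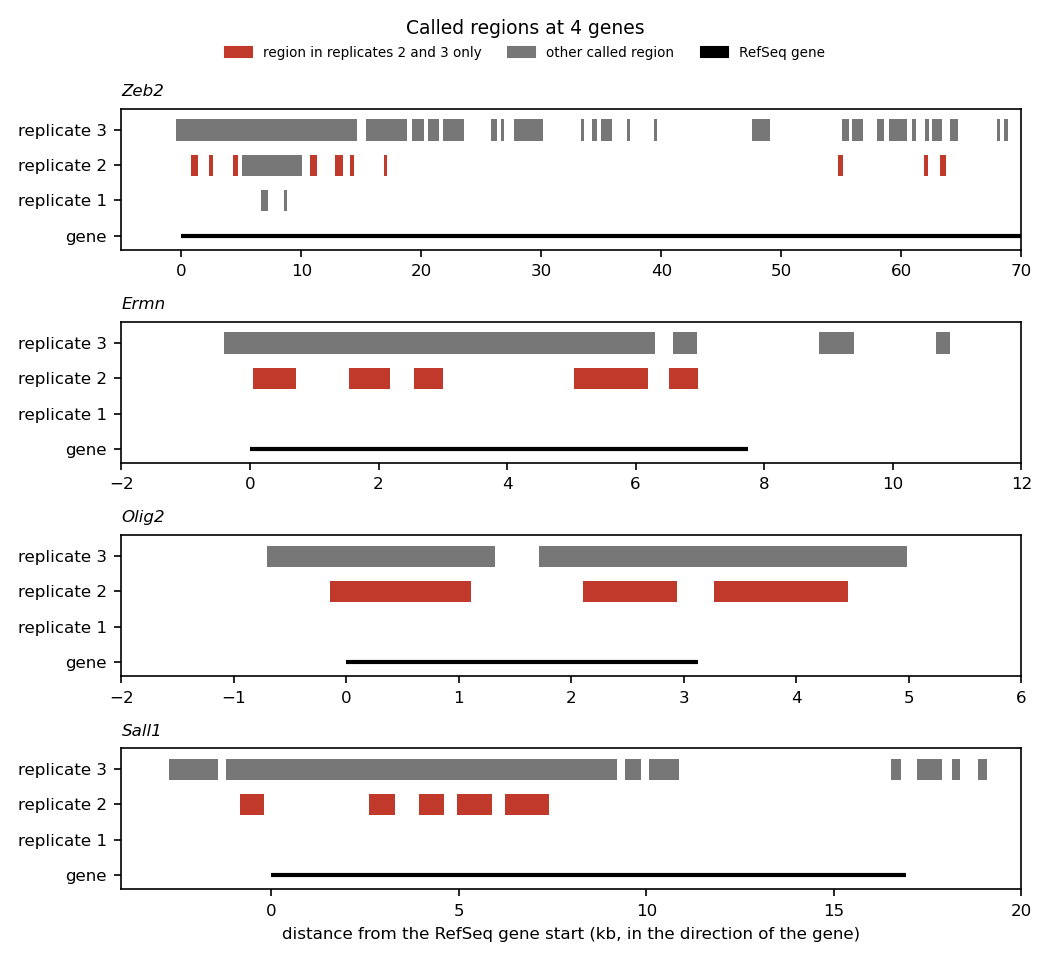
Called regions in each replicate along 4 genes (x axis, kb from the RefSeq gene start in the direction of the gene), with regions in replicates 2 and 3 only in red, other called regions in grey and the gene as a black line. Ermn, Olig2 and Sall1 have several narrow regions in replicate 2 under wide replicate 3 regions and none in replicate 1, and Zeb2 has 2 in replicate 1.

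Markers of neurons, astrocytes and vessels were counted in the same way. Of 28 neuron genes, Nefl, Snap25 and Stmn1 had regions (10.7%, interval 3.71 to 27.2), with folds in replicate 2 of 3.198 to 4.52. Of 20 astrocyte genes, Glul, which encodes glutamine synthetase, had 2 (5.97 and 4.05 in replicate 2) and Nfib 5, against Glul and Nfia in all 3 replicates. None of 22 endothelial, mural and meningeal genes had any (interval up to 14.9%). The intervals of all 3 lists include the 3.93% of all coding genes.

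Hox genes, which set position along the body axis, had regions at 8 of 39 genes (20.5%, interval 10.8 to 35.5), beside 3.93% of all coding genes. In all 3 replicates Hoxa9 alone had one (2.56%, interval 0.454 to 13.2, beside 0.850%), and in the whole of replicate 3, 23 had one (59.0%, beside 31.4%). Hoxb3 had 6, with folds of 3.57 to 5.75 in replicate 2 and 5.53 to 6.98 in replicate 3. Hoxa7 had 2 and Hoxa9 had 1, and these 3 lay in the widest region of replicate 3, 26649 bp across the Hoxa cluster. A region found in all 3 replicates also overlapped that wide region, and 1 replicate 1 region was assigned to Hoxa9. Neighbouring Hox genes share such regions, so the 8 genes are not independent.

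Genes of messenger RNA splicing had a share above the background, with 8 of 33 hnRNP and SR factors (24.2%, interval 12.8 to 41.0), beside 3.93% of all coding genes. In all 3 replicates 0 had a region (interval up to 10.4%, which includes the 0.850% of all coding genes). In the whole of replicate 3, 28 had one (84.8%, beside 31.4%). Ptbp1, a repressor of neuronal splicing, had folds of 4.01 and 9.13 from 41 and 77 stacked fragments, and its printed window holds CACGTG. Hnrnpl (4.54 and 6.29), Hnrnpa2b1 (4.05 and 7.11) and Hnrnpul1 (4.00 and 4.88) followed, and Hnrnpc, Hnrnpk and Hnrnpu were also among the 8. All 8 regions lay within 1 kb of a start.

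Ribosomal protein genes had 8 of 79 (10.1%, interval 5.22 to 18.7), beside 3.93% of all coding genes. In all 3 replicates 0 had a region (interval up to 4.64%, which includes 0.850%), and in replicate 3, 54 had one (68.4%, beside 31.4%). Rps19 had the highest fold, 5.26 in replicate 2 and 8.66 in replicate 3, followed by Rps27a (4.54 and 4.56), Rpl10 (4.09 and 4.60), Rpl3 (4.04 and 4.44) and Rpl19 (3.97 and 2.61). All 8 regions were promoter regions, with a median width of 377.5 bp in replicate 2 and 395.5 bp in replicate 3. These were narrow in both lists, unlike those of the oligodendrocyte genes. Translation factors had 5 of 33 (15.2%) both among these regions, beside 3.93% of all coding genes, and among those in all 3 replicates, beside 0.850%, with Eif3b (5.98 and 5.14), Eif4e (5.82 and 7.54), Eif4a2, Eif4a1 and Eif5a here and Eef1a2, Eef1b2, Eef2, Eif4g1 and Eif4g2 in all 3 replicates.

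Lysosome and V-ATPase genes had regions in both classes. In replicates 2 and 3 only, 5 of 44 had a region (11.4%, interval 4.95 to 24.0, beside 3.93% of all coding genes), against 7 in all 3 replicates (15.9%, interval 7.93 to 29.4, beside 0.850% of all coding genes). The shares of the list were thus alike while the shares of all coding genes were not. In the whole of replicate 3, 37 of the 44 had a region (84.1%, beside 31.4%). Cln3 (folds 5.72 and 7.32), the proteases Ctsb (4.88 and 4.99) and Ctsd (3.63 and 6.49), and the proton pump subunits Atp6v0a1 (4.05 and 3.93) and Atp6v0c (3.40 and 9.05) were those in replicates 2 and 3 only. At Ctsd the pileup was 37 fragments in replicate 2 and 79 in replicate 3. Its region covered the window with 2 E-boxes printed above, and its replicate 2 summit lay 83 bp downstream of the gene start.

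The smaller lists gave Jun (5.49 and 8.44), Klf10 (4.71 and 4.05), Btg1 and Dusp1 among 32 AP-1 and immediate early genes (12.5%, interval 4.97 to 28.1, beside 3.93% of all coding genes), against Fos in all 3 replicates. Heat shock genes had 4 of 30 (13.3%, interval 5.31 to 29.7, beside 3.93%), among them Hspa8 (5.52 and 6.56 at its start), Hsp90aa1 and Hsp90ab1. Actin cytoskeleton genes had 5 of 31 (16.1%, interval 7.09 to 32.6, beside 3.93%), among them Rhob (5.29 and 9.61), a small GTPase of actin dynamics, and Actb (4.52 and 5.55). In the whole of replicate 3 the AP-1, heat shock and actin lists reached 65.6%, 60.0% and 61.3%, beside 31.4%. Sox genes had 2 of 20, Sox2 and Sox8 (10.0%, interval 2.79 to 30.1), and the intervals of the Sox and opioid lists include 3.93%. Of 29 opioid signalling genes, Gnai1 (3.91 and 3.07) and Gnao1 (3.09 and 6.41), subunits of inhibitory G proteins, had regions (6.90%, interval 1.91 to 22.0), and the receptor genes Oprm1, Oprd1, Oprk1 and Oprl1 had none in any replicate.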

How the data were processed

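The authors deposited 1 list of regions per replicate. Per the submitters' processing notes, MACS2 2.1.2, Bowtie2, Picard 2.18.26, SAMtools 1.9, Trimmomatic 0.38 and FastQC were used with build GRCm38. Which control library and settings served the calling was not given in the sources used here. For each summit the deposited lists give a score, the ratio of pileup to background (the fold), and the p-value and q-value as −log10, all from the authors' peak caller. The authors' annotated tables give each region a location class, a distance and a gene. Starts were converted to count from 1.

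A region with several summits was counted once, with the values of its strongest summit by fold, and a replicate 2 region took the strongest replicate 3 region it overlapped by at least 1 bp. Whole-number pileups and background levels were solved from fold and −log10 p under a Poisson model, within 0.001 for 100% of those checked: the strongest summit of each region in replicates 1 and 2 and 1358 summits of replicate 3. The relative depth was the lowest solved background of a list, over all its regions, divided by the width of its narrowest region. It was scaled to 1 in replicate 1 and rests on single extreme regions, because no read totals were used here. Coding symbols were matched to RefSeq, older symbols included (99.7% of 863). Promoter windows counted as overlapped when they shared 1 bp with a region. Shares have 95% Wilson intervals, which cover counting error only. With 1 group there was no comparison between conditions, and no test across regions was made.

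Named genes were the 20 regions with the highest lower percentile of fold in the 2 lists, the 5 widest in replicate 2, up to 5 genes per list with the most regions, the 5 coding genes with the most regions, the RUNX and opioid receptor genes and up to 6 genes with printed promoters. Further genes were named after their values were seen: Hexim1, the microRNA and long non-coding genes, genes with 3 or more regions, the genes at the edges of the rule, oligodendrocyte genes beyond the first 5 and the microglia markers. A few genes so chosen are not reported here. The members, the rule and the 16 gene lists (524 entries) were chosen with earlier results of these data known.

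Alternatives were stricter overlap (50% of the shorter region, or of each), summits at most 200 bp apart, no replicate 1 region within 1 kb, q of 1e-05, a fold of 5, the p limit of replicate 1, regions taken from replicate 3, genes assigned by RefSeq overlap or by the promoter class, and each replicate left out in turn. On simulated data, 100.0% of the 1 bp overlaps planted among 500 regions and 100.0% of 300 pileups were recovered. The tools were matplotlib 3.10.9, statsmodels 0.14.6, scipy 1.17.1, pandas 2.3.3 and numpy 2.4.6 in Python 3.11.15.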

Additional observations from a re-analysis of the deposited data

How the results depend on the processing

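Stricter rules removed regions by construction. Requiring 50% of both regions to overlap left 472 regions, 380 coding genes, 9 oligodendrocyte and myelin genes and 4 ribosomal protein genes, with 75.8% in the promoter class. A q of 1e-05 left 464, 326, 10 and 3, and a fold of 5 in both replicates left 139, 93, 8 and 1, with 65.5% in the promoter class. Regions taken from replicate 3 had 76.2% in that class. Leaving out each replicate in turn, which defines a different set, gave 1398 to 12784 regions, 957 to 6660 coding genes, 18 to 37 oligodendrocyte genes, 8 to 54 ribosomal genes and 61.9% to 71.7% in the promoter class. Without replicate 2 the set is replicate 3 regions outside replicate 1, which gave the upper ends of the counts. The other settings kept each count within 1.5 times the value above. No paired analysis was possible because there is 1 group. Summit pileups of 13 to 41 fragments in replicate 2 limit how finely regions can be ranked, and whether a region absent from replicate 1 lacked signal there cannot be told from the called lists. Depth is known only as a relative value.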
